A study of Mus musculus with 21 samples.

Results

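PIC144-3 and PIC496-3 are mouse glioma stem-like cell lines that both carry mutant IDH1, and their RNA levels are set against each other here. The lines were derived from brain tumours of genetically engineered mice and grown at 5% oxygen on plates to which cells do not attach, in a neural stem cell medium with EGF and bFGF. The comparison used 3 libraries of PIC144-3 and 3 libraries of PIC496-3, out of 21 libraries of 7 lines in the series. The other IDH1 mutant lines, PIC144-1 and PIC496-4, served as a second pair whose libraries the first comparison does not use, and the IDH1 WT lines PC134-0, PC308-1 and PC326-1 were used only to place levels. With 1 line on each side, a difference here is a difference between 2 cell lines and no test of a genotype. The labels call the libraries biological replicates without saying whether they came from separate cultures, and the p-values measure only the spread between these libraries. The labels give neither the promoter nor the Cre driver of the models nor any allele besides IDH1, and they do not say whether lines that share a number come from the same mouse.

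Genes on autosomes entered the comparison when their mean reached 0.5 FPKM (fragments per kilobase of gene, scaled to the size of the library) in either line. This level kept 13120 of 50225 autosomal genes, 11255 of them protein-coding. Of the 37105 genes left out, 26311 had 0 fragments in all 6 libraries, and the means nearest the level were 0.500119 FPKM inside and 0.499785 FPKM outside. Genes on X and Y were left out because the lines differ there: Xist, the RNA that silences an X chromosome, was at 0, 0.00997 and 0.00259 FPKM in the PIC144-3 libraries and at 6.87, 7.52 and 9.93 FPKM in the PIC496-3 libraries, while the Y-linked Ddx3y was at 1.46, 1.38 and 1.33 FPKM in PIC144-3 and at 0 FPKM in every PIC496-3 library. The 6 libraries held 16568840 to 21966351 fragments, and libraries of a line correlated at 0.985 to 0.987 on the log2 scale.

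Glioma stem-like cells are tumour cells that keep features of neural progenitors. Mutant IDH1 enzymes turn 2-oxoglutarate into 2-hydroxyglutarate, which inhibits enzymes that demethylate DNA and histones. The series was made to look at Cgas, the enzyme that senses DNA outside the nucleus and, by way of STING, turns on interferon genes. Within a genotype, lines can still differ in the brain region and cell state that they resemble, in the extracellular matrix they make, in the chemokines they release and in their chromosomes.

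Both lines expressed progenitor markers, as their label calls for, although Sox10, a factor of oligodendrocyte progenitors, had 0 fragments in PIC144-3 and averaged 0.0316 FPKM in PIC496-3. The progenitor genes Sox2, Olig2 and Nes were picked once their values were known. The transcription factors Sox2 and Olig2 were at 183 and 312 FPKM in PIC144-3 and at 224 and 419 FPKM in PIC496-3, and Nes, an intermediate filament of neural progenitors, was at 80.5 FPKM in PIC144-3 and 74.9 FPKM in PIC496-3. Of 18 microglia and macrophage genes only 2 passed the level filter, neither was called, and Cx3cr1, Csf1r, Itgam, Tyrobp, C1qa, C1qb, C1qc, Adgre1, Trem2 and Ctss had 0 fragments in all 6 libraries. The summed level of the 18 genes was 15.3 to 19.7 FPKM in PIC144-3 and 11.3 to 11.8 FPKM in PIC496-3. The 12 endothelial genes summed to 1.46 to 1.84 FPKM in PIC144-3 and 0.335 to 0.572 FPKM in PIC496-3, with Cdh5, Cldn5 and Emcn at 0 fragments, and the 1 tested member, the VEGF receptor Flt1, was called higher at 1.02 FPKM in PIC144-3 and 0.0372 FPKM in PIC496-3. In bulk RNA, fewer cells that express a gene and less RNA per cell cannot be told apart.

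The difference between the lines was broad but mostly small. A gene was called when its Benjamini-Hochberg adjusted p in limma was under 0.05 and its mean log2(FPKM + 0.5) differed by at least 1, which is 2-fold on that scale and understates the change of genes with low levels. Of the 13120 genes, 985 (7.51%) were called, 659 (5.02%) of them higher in PIC144-3 and 326 (2.48%) lower. By adjusted p alone 6558 genes passed, 3274 higher and 3284 lower, with a median SD within a line of 0.10 on the log2 scale. The median absolute log2 difference was 0.27 and 79.3% of genes were within 1.5-fold. Libraries of the lines did not overlap for 7751 of the 13120 genes (59.1%), and for 981 of the 985 called. Past 4-fold were 143 genes higher and 46 lower in PIC144-3, and past 8-fold were 34 higher and 7 lower. With limma voom on the fragments, 1532 genes were called, 991 higher and 541 lower.

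**Figure D1:**
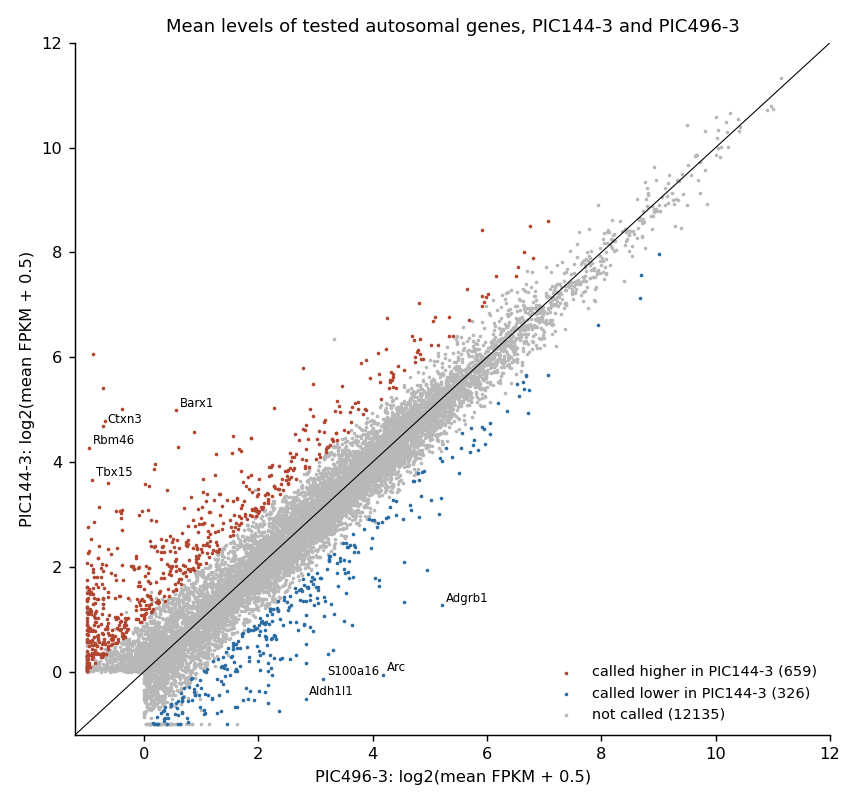
Mean level of each tested autosomal gene in PIC496-3 (horizontal axis) and PIC144-3 (vertical axis), both as log2(mean FPKM + 0.5), with 659 genes called higher in PIC144-3 in red, 326 called lower in blue and the others in grey. Most genes lie along the line of equal levels, and the labelled genes are the 4 with the largest differences in each direction among those with a full symbol and a mean of at least 5 FPKM.

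Cgas and Idh1, the genes the series is built around, stayed under the 2-fold limit. Cgas (chr9:78430526-78443237, minus strand, GRCm38) was at 2.75, 2.15 and 2.74 FPKM in the PIC144-3 libraries and at 0.957, 1.22 and 1.04 FPKM in the PIC496-3 libraries. All 3 PIC144-3 libraries lay above all 3 PIC496-3 libraries, and the exact two-sided permutation test gave p = 0.1, the smallest that 3 against 3 libraries allow. Such a lack of overlap, in either direction, was found for 59.1% of the tested genes. The summed 592 fragments in PIC144-3 gave a 95% counting interval of 2.35 to 2.76 FPKM, and the 229 fragments in PIC496-3 gave 0.938 to 1.22 FPKM. The limma log2 difference 0.95 ± 0.12 (SE), adjusted p = 4.46e-04, passed the p threshold and missed the 2-fold limit, which it passed with a pseudocount of 0.1 (1.17) or by voom (1.24). Cgas was at 0.502 FPKM in PIC144-1, 0.229 FPKM in PIC496-4 and 3.91, 3.06 and 3.24 FPKM in PC134-0, PC308-1 and PC326-1, so PIC144-3 had the highest mean of the IDH1 mutant lines and lay below each WT line. Idh1 (chr1:65158616-65186500) was at 125, 120 and 119 FPKM in PIC144-3 and at 134, 136 and 130 FPKM in PIC496-3, with a limma log2 difference -0.14 ± 0.043 (SE), adjusted p = 0.0259, and an exact permutation p of 0.1. The adjusted p of Idh1 was above 0.05 under several alternatives, among them without any 1 of 4 of the libraries.

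Among genes with a full symbol and a mean of at least 5 FPKM, the 12 with the largest upward differences in PIC144-3 averaged at most 1.34 FPKM in PIC496-3. Ctxn3, a small neuronal membrane protein, was at 27.4, 24.6 and 23.7 FPKM in PIC144-3 and at 0.156, 0.0327 and 0.153 FPKM in PIC496-3 (log2 difference 5.39 ± 0.11 (SE), adjusted p = 1.11e-07). Rbm46, an RNA-binding protein known from germ cells, was at 19.6, 18.8 and 18.1 FPKM in PIC144-3, against 0, 0.0420 and 0 FPKM in PIC496-3 (log2 difference 5.24 ± 0.079 (SE), adjusted p = 5.44e-08). Neither gene was above 2 FPKM on average in any of the other 5 lines. Among the 12 were 4 transcription factors of embryonic patterning. Tbx15, a T-box factor of limb and skeleton, was at 12.1, 11.8 and 12.6 FPKM in PIC144-3 and at 0.0167, 0.0560 and 0.0327 FPKM in PIC496-3. Barx1, a homeobox factor of the face and stomach, was at 34.3, 30.1 and 29.5 FPKM in PIC144-3 and 0.896, 0.975 and 1.05 FPKM in PIC496-3. En1, the engrailed factor of the midbrain and hindbrain, was at 12.7, 10.5 and 11.8 FPKM in PIC144-3 and 0.334, 0.12 and 0 FPKM in PIC496-3. Dmrta2, a factor of forebrain progenitors, was at 15.2, 13.4 and 17.0 FPKM in PIC144-3 and 0.472, 0.575 and 0.881 FPKM in PIC496-3. The rule that named the 12 genes required libraries that do not overlap between the lines. For these 4 genes the log2 differences were 4.57, 4.43, 4.25 and 3.79, each with an SE of at most 0.18 and an adjusted p of at most 2.29e-06. All 4 were also called higher in PIC144-1 than in PIC496-4, with log2 differences of 3.83, 5.28, 4.57 and 4.04. Ctxn3 and Rbm46 were not, and for both the difference between the pairs itself passed (adjusted p = 3.13e-10 and 9.44e-11).

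Among the rest of the 12 were secreted or surface proteins. The chemokine Cxcl14 was at 6.98, 6.46 and 6.80 FPKM in PIC144-3 and at 0, 0.144 and 0 FPKM in PIC496-3 (log2 difference 3.74 ± 0.13 (SE), adjusted p = 7.57e-07). Cxcl12, the ligand of Cxcr4, was at 6.54, 6.35 and 5.85 FPKM in PIC144-3 and 0.00766, 0.0193 and 0.00750 FPKM in PIC496-3 (log2 difference 3.72 ± 0.098 (SE), adjusted p = 3.29e-07), and the other 5 lines averaged 0.353 FPKM or less. Il33, a nuclear cytokine released by damaged cells, was at 24.3, 24.7 and 20.9 FPKM in PIC144-3 and 1.63, 1.00 and 1.40 FPKM in PIC496-3 (log2 difference 3.70 ± 0.13 (SE), adjusted p = 1.11e-06). That the libraries do not overlap was a condition for naming these cytokines and is no separate result. Ngfr, the low-affinity neurotrophin receptor, averaged 14.1 ± 0.267 FPKM in PIC144-3 and 0.638 ± 0.0830 FPKM in PIC496-3 (SD, n = 3 each), the tetraspanin Tspan8 19 ± 0.923 FPKM in PIC144-3 and 1.02 ± 0.464 FPKM in PIC496-3, and the collagen VI chain Col6a1 11.4 ± 0.121 FPKM in PIC144-3 and 0.512 ± 0.0856 FPKM in PIC496-3.

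The 12 genes with the largest downward differences, by the same rule, included synaptic, astrocytic and cell cycle genes. Arc, an activity-regulated synaptic protein, was at 0.352, 0.234 and 0.806 FPKM in PIC144-3 and at 16.6, 18.3 and 18.3 FPKM in PIC496-3 (log2 difference -4.28 ± 0.20 (SE), adjusted p = 4.22e-06), and PIC496-3 had the highest Arc level of the 7 lines, the others being at 2.85 FPKM or less. Adgrb1, an adhesion receptor that recognises dying cells, was at 1.69, 2.11 and 1.91 FPKM in PIC144-3 and at 37.4, 34.7 and 38.2 FPKM in PIC496-3 (log2 difference -3.95 ± 0.077 (SE), adjusted p = 1.11e-07). Aldh1l1, a folate enzyme used as an astrocyte marker, was at 0.138, 0.198 and 0.257 FPKM in PIC144-3 and at 6.90, 6.67 and 6.27 FPKM in PIC496-3 (log2 difference -3.35 ± 0.10 (SE), adjusted p = 4.79e-07). These 3 genes were not called between PIC144-1 and PIC496-4. Kcnd2, a subunit of the A-type potassium channel, averaged 2.00 ± 0.0317 FPKM in PIC144-3 and 23 ± 0.758 FPKM in PIC496-3. The NMDA receptor subunit Grin2c averaged 0.766 ± 0.0401 FPKM in PIC144-3 and 8.78 ± 0.852 FPKM in PIC496-3, and Nkx6-2, a homeobox factor of the oligodendrocyte lineage, 1.47 ± 0.354 FPKM in PIC144-3 and 10.9 ± 0.695 FPKM in PIC496-3. Slc6a11, a GABA transporter of astrocytes, averaged 2.62 ± 0.218 FPKM in PIC144-3 and 16.8 ± 0.614 FPKM in PIC496-3, and the tubulin-binding Stmn3 1.35 ± 0.110 FPKM in PIC144-3 and 12 ± 1.19 FPKM in PIC496-3. The calcium-binding S100a16, the monooxygenase Moxd1 and the lipid phosphatase Plpp4 had log2 differences of -3.28, -2.90 and -2.67 (adjusted p at most 4.67e-06). Ccnb2 is described with the cell cycle genes.

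**Figure D2:**
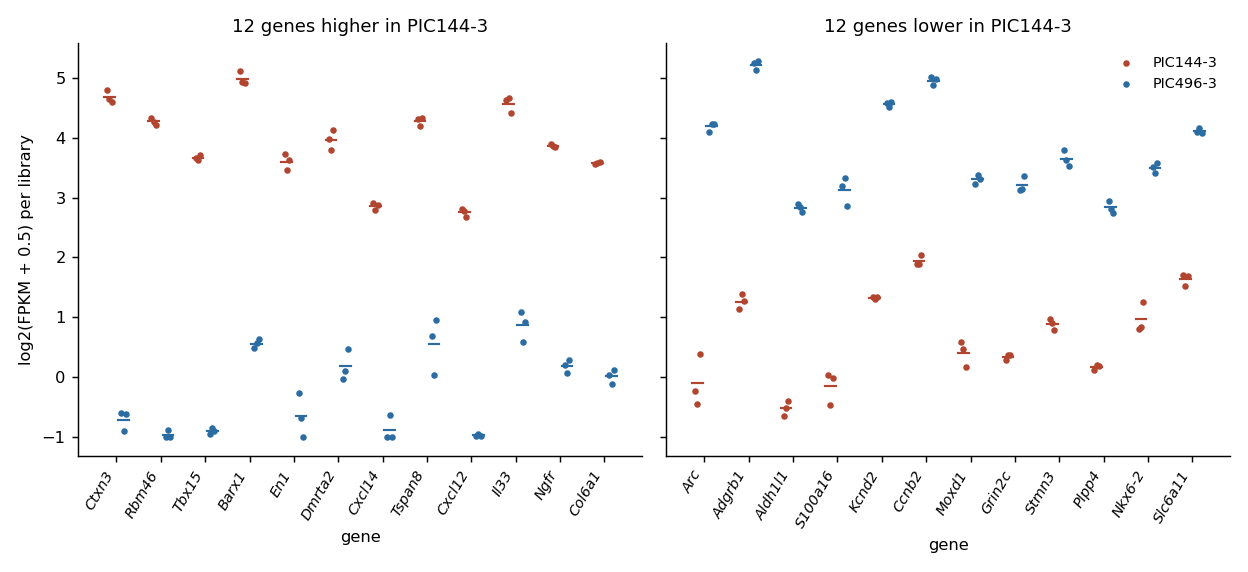
Level in each library, as log2(FPKM + 0.5), of the 12 genes with the largest differences in each direction, with PIC144-3 libraries in red, PIC496-3 libraries in blue and a bar at the mean of the 3. The genes were chosen among called genes whose libraries do not overlap between the lines. Ctxn3 and Rbm46 show the widest gaps.

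Chemokines and cytokines were called higher in PIC144-3 more often than lower: of 17 tested members of a list of 24, 9 were called higher, 1 lower and 7 not at all, with a median log2 difference of 1.09, beside -0.019 over all tested genes. Over all tested genes 5.02% were called higher and 2.48% lower, and every list count below stands beside these shares. Besides Cxcl14, Cxcl12 and Il33, the neutrophil attractant Cxcl1 was at 4.20, 2.55 and 4.07 FPKM in PIC144-3 and 0.0334, 0.0560 and 0 FPKM in PIC496-3 (log2 difference 2.93 ± 0.18 (SE), adjusted p = 1.15e-05). The T-cell attractants Cxcl10 and Ccl5, named, like Csf1 and the further secreted factors that follow, with their values in view, averaged 4.11 ± 0.859 and 1.70 ± 0.663 FPKM in PIC144-3, against 0.412 ± 0.122 and 0.0218 ± 0.0377 FPKM in PIC496-3. Csf1, the macrophage growth factor, averaged 14.9 ± 0.349 FPKM in PIC144-3 and 4.22 ± 0.623 FPKM in PIC496-3 (log2 difference 1.72 ± 0.092 (SE), adjusted p = 5.33e-06). The libraries of the lines did not overlap for any of these 4 genes, as for 981 of the 985 called genes. Vegfc, a lymphatic growth factor, and the IL6-family cytokine Lif were called higher as well, by 1.49 and 1.09. The member called lower was Cx3cl1, the membrane-bound ligand of Cx3cr1, at 4.05, 4.16 and 4.19 FPKM in PIC144-3 and 9.23, 8.28 and 9.67 FPKM in PIC496-3 (log2 difference -1.04 ± 0.07 (SE), adjusted p = 1.63e-05). Without the third PIC496-3 library it missed the fold limit at -0.996. The summed level of the list overlapped between the lines, at 1444 to 1538 FPKM in PIC144-3 and 1404 to 1668 FPKM in PIC496-3. No called member averaged above 23.3 FPKM in either line, so this total came mostly from members that were not called.

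Interferon-stimulated genes, which cells switch on through STAT and IRF factors, were called higher in part. Of 23 tested genes of a list of 36, 6 were called higher, none lower and 17 not called, with a median log2 difference of 0.66. Over all tested genes 5.02% were called higher. The membrane protein Ifitm3, which blocks virus entry, was at 132, 137 and 120 FPKM in PIC144-3 and at 29.6, 25.5 and 27.2 FPKM in PIC496-3 (log2 difference 2.22 ± 0.07 (SE), adjusted p = 5.44e-07). The immunity GTPase Irgm1 was at 8.67, 8.29 and 8.15 FPKM in PIC144-3 and 1.66, 1.65 and 1.30 FPKM in PIC496-3 (log2 difference 2.13 ± 0.09 (SE), adjusted p = 2.20e-06), and the transcription factor Irf1 at 4.39, 4.4 and 4.48 FPKM in PIC144-3 and 0.946, 0.858 and 0.833 FPKM in PIC496-3 (log2 difference 1.84 ± 0.081 (SE), adjusted p = 2.56e-06). For all 3 genes every PIC144-3 library was above every PIC496-3 library, and 981 of the 985 called genes had no overlap either. Isg15, a ubiquitin-like protein, was at 1.57, 3.39 and 3.51 FPKM in PIC144-3, where the first library was the lowest, and at 0.580, 0.347 and 0.730 FPKM in PIC496-3 (log2 difference 1.62 ± 0.27 (SE), adjusted p = 0.00211). The antiviral Ifit1 and the guanylate-binding protein Gbp2, chosen after their values were seen, were called at 0.900 ± 0.106 and 0.781 ± 0.223 FPKM in PIC144-3 and 0.0677 ± 0.0275 and 0.0359 ± 0.0429 FPKM in PIC496-3. Irgm1 and Irf1 were also called higher in PIC144-1 than in PIC496-4, and Ifitm3, Isg15, Ifit1 and Gbp2 were not called there.

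The promoters of the called interferon-stimulated genes are shown because all 6 calls were higher in PIC144-3 and because the known regulators bind short motifs. RefSeq windows on GRCm38.p6, from 250 bases before to 50 bases after the gene start, were found for 6 of 6 called genes. They were searched on both strands for GAAANNGAA, a core of the IRF-binding element, and for TTCNNNGAA, the STAT-binding core, each allowed to overlap itself or the other. Capitals mark the matches in Ifitm3 (chr7:141010695-141010994, minus strand), Isg15 (chr4:156200769-156201068, minus strand), Ifit1 (chr19:34640639-34640938, plus strand) and Irf1 (chr11:53769764-53770063, plus strand, the first of 2 windows listed).
Ifitm3: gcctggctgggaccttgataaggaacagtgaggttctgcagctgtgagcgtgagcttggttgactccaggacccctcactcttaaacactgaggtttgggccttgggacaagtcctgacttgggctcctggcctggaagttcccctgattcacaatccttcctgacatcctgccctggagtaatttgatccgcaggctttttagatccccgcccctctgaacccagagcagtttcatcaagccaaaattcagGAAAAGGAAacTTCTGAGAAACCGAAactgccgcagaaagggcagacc
Isg15: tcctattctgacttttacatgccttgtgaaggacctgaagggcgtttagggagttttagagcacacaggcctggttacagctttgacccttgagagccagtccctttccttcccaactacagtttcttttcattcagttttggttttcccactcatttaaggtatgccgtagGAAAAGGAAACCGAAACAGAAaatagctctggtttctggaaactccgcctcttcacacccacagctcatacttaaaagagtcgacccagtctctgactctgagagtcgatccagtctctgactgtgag
Ifit1: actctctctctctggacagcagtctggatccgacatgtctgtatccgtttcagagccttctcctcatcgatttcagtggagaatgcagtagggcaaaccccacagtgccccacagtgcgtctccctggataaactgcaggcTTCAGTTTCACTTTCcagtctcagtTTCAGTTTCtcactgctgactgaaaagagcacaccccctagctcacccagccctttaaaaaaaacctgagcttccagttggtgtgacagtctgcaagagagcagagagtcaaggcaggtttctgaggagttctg
Irf1: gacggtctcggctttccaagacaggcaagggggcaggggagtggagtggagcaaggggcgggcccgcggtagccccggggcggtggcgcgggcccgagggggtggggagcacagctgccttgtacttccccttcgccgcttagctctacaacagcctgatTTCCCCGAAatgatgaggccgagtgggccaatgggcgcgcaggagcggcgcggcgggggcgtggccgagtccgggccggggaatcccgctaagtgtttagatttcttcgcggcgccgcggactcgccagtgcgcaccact
The Ifitm3 window held 2 IRF matches and 1 STAT match, with the STAT match and 1 IRF match overlapping, and Isg15 held 3 overlapping IRF matches. Ifit1 held 3 IRF matches read on the opposite strand, and Irf1 held 1 STAT match and no IRF match. With Irgm1 and Gbp2, 5 of the 6 called genes had an IRF match, and so did 8 of 13 interferon-stimulated genes that were tested, not called and had a window. Over all 27025 promoters the IRF motif was in 8.57% and the STAT motif in 8.47%, and over those of tested genes in 6.67% and 6.61%. Among genes called higher in PIC144-3 the shares were 8.48% and 8.71%, and among genes called lower 9.62% and 7.21%.

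Genes that load peptides on class I molecules were called higher in 5 of 20 tested cases and lower in none, with a median log2 difference of 0.66. The share called higher over all tested genes was 5.02%. The loading chaperone Tapbp was at 14.5, 13 and 13.7 FPKM in PIC144-3 and 5.06, 4.86 and 5.21 FPKM in PIC496-3 (log2 difference 1.36 ± 0.06 (SE), adjusted p = 2.60e-06), and its relative Tapbpl at 4.70, 5.02 and 4.41 FPKM in PIC144-3 and 0.906, 0.736 and 1.17 FPKM in PIC496-3. Tapbp shares 29.0% of its exon bases with another gene. Erap1, which trims peptides in the endoplasmic reticulum, averaged 4.17 ± 0.522 FPKM in PIC144-3 and 1.44 ± 0.0645 FPKM in PIC496-3 (log2 difference 1.26 ± 0.099 (SE), adjusted p = 3.77e-05). The peptide transporter Tap2, chosen after its values were seen, and the class I gene H2-M3 sat near the fold limit at 1.04 and 1.05, and both missed it without the first PIC144-3 library, at 0.96 each. Without the second PIC496-3 library Tap2 was at 0.95, and without the second PIC144-3 library H2-M3 was at 0.99. B2m, the light chain, chosen after its values were seen, was at 124 ± 12.2 FPKM in PIC144-3 and 75.9 ± 7.88 FPKM in PIC496-3 with a log2 difference of 0.70. The summed level of the list was 613 to 632 FPKM in PIC144-3 and 585 to 615 FPKM in PIC496-3, so the totals overlapped.

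The sensors that lie upstream of interferon did not move in 1 direction. Of 19 tested genes of cytosolic DNA sensing, 1 was called, beside 7.51% over all tested genes. It was Polr3a, the large subunit of RNA polymerase III, at 23.6, 24.6 and 23.2 FPKM in PIC144-3 and 6.29, 6.55 and 6.76 FPKM in PIC496-3 (log2 difference 1.79 ± 0.051 (SE), adjusted p = 3.99e-07). It lies in a raised stretch of chromosome 14 described with the chromosomes. Sting1, listed under its older symbol Tmem173 and chosen after its values were seen, was at 48.2 ± 1.95 FPKM in PIC144-3 and 40.8 ± 1.41 FPKM in PIC496-3, a log2 difference of 0.24. Of 12 tested genes of double-stranded RNA sensing, 2 were called higher and 2 lower. The endosomal receptor Tlr3 was at 14.9, 14.5 and 14.6 FPKM in PIC144-3 and 4.21, 5.13 and 4.65 FPKM in PIC496-3 (log2 difference 1.56 ± 0.072 (SE), adjusted p = 3.04e-06), and the RNA helicase Ddx58 averaged 4.76 ± 0.0994 FPKM in PIC144-3 and 1.71 ± 0.271 FPKM in PIC496-3 (log2 difference 1.26 ± 0.099 (SE), adjusted p = 3.77e-05). Trim25, a ubiquitin ligase that acts on the Ddx58 product, was at 1.53, 1.16 and 1.37 FPKM in PIC144-3 and 6.29, 6.43 and 6.75 FPKM in PIC496-3 (log2 difference -1.92 ± 0.092 (SE), adjusted p = 3.28e-06), and the sensor cofactor Zcchc3 averaged 0.105 ± 0.0672 FPKM in PIC144-3 and 1.57 ± 0.146 FPKM in PIC496-3 (log2 difference -1.78 ± 0.15 (SE), adjusted p = 5.31e-05). The receptor and the helicase were thus higher in the line in which the ligase and the cofactor were lower.

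Collagen genes were called higher in PIC144-3 with no call the other way in limma on FPKM, while limma voom on the fragments called 11 higher and 2 lower. Of 19 tested autosomal members of a list of 34, 10 were called higher in PIC144-3 and none lower, with a median log2 difference of 1.25, and the summed level was 256 to 274 FPKM in PIC144-3 and 74.8 to 86.7 FPKM in PIC496-3. Collagens are the fibres and sheets of the extracellular matrix, and the called genes covered several kinds. Col4a1, a chain of the basement membrane collagen, was at 111, 108 and 102 FPKM in PIC144-3 and 19.3, 17.4 and 19.2 FPKM in PIC496-3 (log2 difference 2.49 ± 0.056 (SE), adjusted p = 1.97e-07). Its partner Col4a2 had means of 16.7 FPKM in PIC144-3 and 5.51 FPKM in PIC496-3, and a log2 difference of 1.52 (adjusted p = 4.36e-06). Of the fibril-forming chains, Col5a2 was at 19.4, 19 and 17.6 FPKM in PIC144-3 and 2.98, 2.46 and 2.58 FPKM in PIC496-3 (log2 difference 2.60 ± 0.077 (SE), adjusted p = 4.39e-07). Col11a1, chosen after its values were seen, averaged 43.1 ± 1.76 FPKM in PIC144-3 and 10.6 ± 0.722 FPKM in PIC496-3 (log2 difference 1.97 ± 0.061 (SE), adjusted p = 5.03e-07), and Col5a1, also chosen afterwards, 16.7 ± 0.399 FPKM in PIC144-3 and 5.71 ± 0.231 FPKM in PIC496-3. Col26a1 was at 5.4, 5.52 and 4.94 FPKM in PIC144-3 and 0.0307, 0.0128 and 0.0450 FPKM in PIC496-3. Col6a2, Col18a1 and Col23a1 were the other called members, at log2 differences of 1.84, 1.25 and 1.48. In the second pair Col4a1, Col5a1, Col6a1 and Col11a1 were higher in PIC144-1 by 1.15, 2.45, 2.51 and 3.44 on the log2 scale, while Col5a2 and Col26a1 differed by 0.86 and -0.032 and were not called.

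Other matrix genes were mixed, with 9 of 40 tested members called higher and 3 lower, and a median log2 difference of 0.29. The nidogens Nid1 and Nid2, which link the sheets of basement membranes, averaged 3.20 ± 0.376 and 13.1 ± 0.449 FPKM in PIC144-3 and 0.552 ± 0.150 and 1.88 ± 0.123 FPKM in PIC496-3. Lamb2, a laminin chain chosen after its values were seen, averaged 27.4 ± 0.565 FPKM in PIC144-3 and 8.44 ± 0.512 FPKM in PIC496-3 (log2 difference 1.64 ± 0.055 (SE), adjusted p = 7.49e-07). The membrane protease Mmp14 was at 22.2, 21.6 and 21.1 FPKM in PIC144-3 and 3.44, 2.97 and 3.08 FPKM in PIC496-3 (log2 difference 2.60 ± 0.064 (SE), adjusted p = 2.65e-07), and the hyaluronan link protein Hapln1 averaged 2.12 ± 0.201 FPKM in PIC144-3 and 0.0727 ± 0.0693 FPKM in PIC496-3. Lower in PIC144-3 were the microfibril gene Fbn2, at 12.3, 13.5 and 14.1 FPKM in PIC144-3 and 41.9, 48.7 and 44.1 FPKM in PIC496-3, the proteoglycan Sdc3, at 50.9, 47.9 and 52.2 FPKM in PIC144-3 and 134, 135 and 132 FPKM in PIC496-3, both chosen after their values were seen, and Fbn1, at a log2 difference of -1.01.

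**Figure D3:**
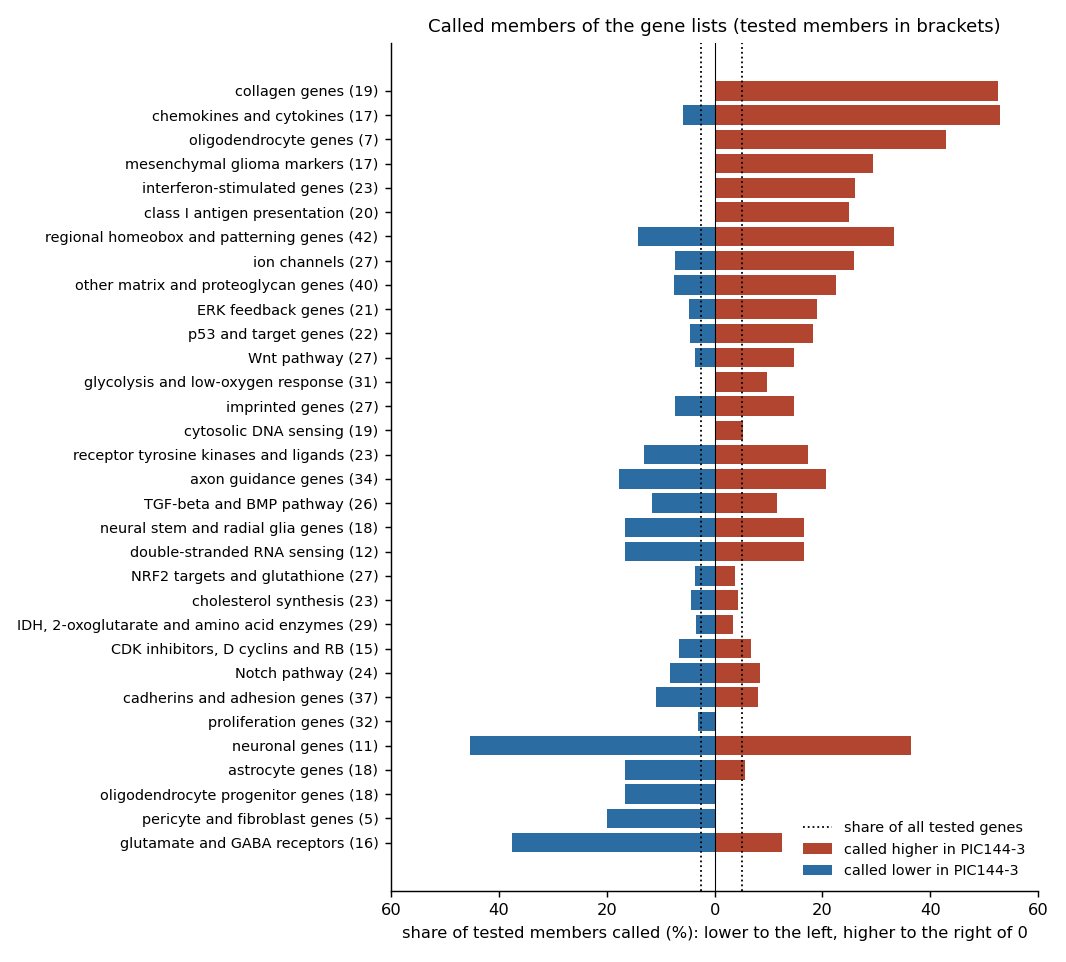
Share of the tested members of each gene list that was called lower (blue, left) or higher (red, right) in PIC144-3, for lists with at least 5 tested members, with the number tested in brackets and dotted lines at the shares over all tested genes (2.48% and 5.02%). Collagens and chemokines reach the highest shares called higher, and glutamate and GABA receptors and neuronal genes the highest shares called lower.

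Factors that set regional identity were called in both directions. Of 42 tested homeobox and patterning genes, 14 were called higher in PIC144-3 and 6 lower, with a median log2 difference of 0.46. En2, the second engrailed factor of the midbrain and hindbrain, was at 8.34, 7.42 and 8.24 FPKM in PIC144-3 and 0.283, 0.252 and 0.260 FPKM in PIC496-3 (log2 difference 3.47 ± 0.087 (SE), adjusted p = 2.72e-07). Irx1, an Iroquois factor, was at 3.57, 3.57 and 3.80 FPKM in PIC144-3 and 0.0957, 0.0401 and 0.164 FPKM in PIC496-3 (log2 difference 2.79 ± 0.12 (SE), adjusted p = 2.29e-06), and Nkx6-1, a factor of the ventral neural tube, at 2.40, 3.08 and 3.13 FPKM in PIC144-3 and 0, 0.0167 and 0 FPKM in PIC496-3 (log2 difference 2.73 ± 0.14 (SE), adjusted p = 4.11e-06). Nkx6-1 averaged at most 0.0116 FPKM in each of the other 5 lines. Its relative Nkx6-2, given above, went the other way. Msx2 and Hoxd8, also picked with their values in view, had 0 fragments in every PIC496-3 library and were at least 59.0-fold and 58.1-fold higher in PIC144-3, counting 3 fragments over the line as the floor. Among the 6 genes called lower, Six3, a factor of the anterior forebrain, was at 3.07, 3.46 and 3.66 FPKM in PIC144-3 and 11.6, 10.9 and 10.1 FPKM in PIC496-3 (log2 difference -1.55 ± 0.08 (SE), adjusted p = 4.70e-06), and Otx2, a factor of the forebrain and midbrain, averaged 0.0456 ± 0.0469 FPKM in PIC144-3 and 1.19 ± 0.237 FPKM in PIC496-3 (log2 difference -1.63 ± 0.18 (SE), adjusted p = 1.93e-04). Both were chosen after their values were seen. Meis1, Meis2, Dlx2 and Nkx6-2 were the other 4, at log2 differences of -1.06, -1.13, -1.60 and -2.54. Hoxa7, a factor of posterior segments also chosen afterwards, was called higher at 9.02 ± 0.738 FPKM in PIC144-3 and 2.86 ± 0.116 FPKM in PIC496-3, with 20.4% of its exon bases shared with another gene.

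Factors of the skull, face and limb mesenchyme were also high in PIC144-3. These genes are no fixed list and were picked with their values in view, so they describe the line and nothing is tested on them as a group. Six2 was at 7.01, 6.78 and 8.65 FPKM in PIC144-3 and 0.503, 0.471 and 0.347 FPKM in PIC496-3, Twist1 at 3.45, 4.03 and 2.89 FPKM in PIC144-3 and 0.154, 0.0645 and 0.0753 FPKM in PIC496-3, and Tbx18 at 4.42, 4.06 and 4.48 FPKM in PIC144-3 and 0.0133, 0.0111 and 0 FPKM in PIC496-3. Tbx18 shares 20.6% of its exon bases with another gene. Twist1 averaged 3.74 FPKM in PIC144-1, and no more than 0.0979 FPKM in each remaining line, while Tbx18 was at 1.08 FPKM or less in all lines but PIC144-3. Of 14 pericyte and fibroblast genes 5 were tested, and 1, Thy1, was called lower. The summed level of the list was 34.5 to 37.6 FPKM in PIC144-3 and 33.2 to 37.1 FPKM in PIC496-3. Most of it was Cspg4, which is also on the oligodendrocyte progenitor list, at 30.1 FPKM in PIC144-3 and 29.5 FPKM in PIC496-3. The sum therefore says little about the other members.

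Genes of the glial and neuronal lineages split. Of 18 tested oligodendrocyte progenitor genes, 3 were called lower in PIC144-3 and none higher, and their summed level was 1045 to 1135 FPKM in PIC144-3 and 1449 to 1551 FPKM in PIC496-3. Ptprz1, a receptor phosphatase, was at 40.4, 42.2 and 41.8 FPKM in PIC144-3 and 98.5, 99.1 and 103 FPKM in PIC496-3 (log2 difference -1.26 ± 0.041 (SE), adjusted p = 6.36e-07). Lhfpl3 averaged 6.95 ± 0.391 FPKM in PIC144-3 and 15.7 ± 1.2 FPKM in PIC496-3, and the progenitor receptor Gpr17 0.102 ± 0.0535 FPKM in PIC144-3 and 0.782 ± 0.164 FPKM in PIC496-3. Gpr17 missed the fold limit without the first PIC496-3 library, at -0.99. Olig1, the most abundant member, was at 493, 456 and 496 FPKM in PIC144-3 and 712, 758 and 689 FPKM in PIC496-3, below the fold limit at -0.58. In contrast, 3 of 7 tested genes of maturing oligodendrocytes were called higher: Bcas1 at 5.18 ± 0.404 FPKM in PIC144-3 and 0.997 ± 0.224 FPKM in PIC496-3, the lipid enzyme Ugt8a at 1.58 ± 0.301 FPKM in PIC144-3 and 0.0447 ± 0.0464 FPKM in PIC496-3, and the tetraspanin Tspan2 at 4.00 ± 0.625 FPKM in PIC144-3 and 1.42 ± 0.360 FPKM in PIC496-3. The myelin genes Mbp and Mog were below 0.5 FPKM on average in both lines, Mag had 0 fragments, and Cnp, the most abundant member, was at 15.2 ± 1.49 FPKM in PIC144-3 and 16.4 ± 0.750 FPKM in PIC496-3 and not called.

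Of 18 tested astrocyte genes, 1 was called higher and 3 lower. The gap junction gene Gja1 was at 6.89, 7.05 and 6.95 FPKM in PIC144-3 and 1.30, 1.35 and 1.31 FPKM in PIC496-3 (log2 difference 2.04 ± 0.066 (SE), adjusted p = 6.36e-07). Besides Aldh1l1, the receptor Fgfr3 was lower, at 2.98, 2.98 and 3.04 FPKM in PIC144-3 and 12.2, 12.1 and 12.2 FPKM in PIC496-3 (log2 difference -1.85 ± 0.053 (SE), adjusted p = 3.99e-07), as was Id3, an inhibitor of basic helix-loop-helix factors, at 7.59, 6.53 and 8.31 FPKM in PIC144-3 and 19.9, 22.9 and 19.1 FPKM in PIC496-3 (log2 difference -1.41 ± 0.099 (SE), adjusted p = 2.04e-05). Sparcl1, the most abundant member, averaged 518 ± 28.7 FPKM in PIC144-3 and 440.3 ± 28.4 FPKM in PIC496-3. The members thus did not move together. The same held for neuronal genes, where 4 of 11 tested were called higher and 5 lower. The tubulin Tubb3 was at 14.3, 11.7 and 11.2 FPKM in PIC144-3 and 3.49, 3.54 and 3.58 FPKM in PIC496-3 (log2 difference 1.67 ± 0.092 (SE), adjusted p = 6.20e-06), and the neurofilaments Nefl and Nefm, which share exon bases with each other in the annotation and were picked with their values in view, averaged 1.53 ± 0.367 and 1.25 ± 0.134 FPKM in PIC144-3 and 0.229 ± 0.107 and 0.138 ± 0.0688 FPKM in PIC496-3. Map2, the most abundant, was lower, at 14, 13.1 and 14.1 FPKM in PIC144-3 and 29.0, 29.8 and 29.3 FPKM in PIC496-3 (log2 difference -1.07 ± 0.046 (SE), adjusted p = 2.38e-06). The synaptic vesicle gene Syt1 and the interneuron factor Dlx2 were lower, with log2 differences of -1.82 and -1.60.

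Neural stem and radial glia genes were called higher in 3 and lower in 3 of 18 cases. Prom1, the stem cell surface gene that encodes CD133, was at 4.99, 4.59 and 4.11 FPKM in PIC144-3 and 0.131, 0.0878 and 0.222 FPKM in PIC496-3 (log2 difference 2.97 ± 0.12 (SE), adjusted p = 2.10e-06). Gli3, a mediator of hedgehog signals, averaged 5.06 ± 0.189 FPKM in PIC144-3 and 0.908 ± 0.246 FPKM in PIC496-3 (log2 difference 1.99 ± 0.13 (SE), adjusted p = 1.57e-05), and here PIC496-3 had the lowest mean of the 7 lines. Sox1 had 0 fragments in PIC144-3 and was at 0.947, 1.14 and 0.964 FPKM in PIC496-3, so that it was at least 91.6-fold lower in PIC144-3. The endothelin receptor Ednrb was at 4.49, 5.12 and 4.30 FPKM in PIC144-3 and 15.9, 14.3 and 15.3 FPKM in PIC496-3 (log2 difference -1.61 ± 0.076 (SE), adjusted p = 3.21e-06). Vim, the most abundant member by the mean over both lines, averaged 666 ± 28.1 FPKM in PIC144-3 and 496 ± 16.9 FPKM in PIC496-3. Markers of mesenchymal glioma were called higher in 5 of 17 tested cases and lower in none, with a median of 0.24: S100a11 averaged 67.0 ± 9.998 FPKM in PIC144-3 and 16.6 ± 1.16 FPKM in PIC496-3, the phospholipid-binding Anxa1 26.8 ± 2.05 FPKM in PIC144-3 and 8.40 ± 0.0614 FPKM in PIC496-3, the TNF receptor Tnfrsf1a 69.9 ± 2.76 FPKM in PIC144-3 and 27.2 ± 1.78 FPKM in PIC496-3, and the factor Cebpd 3.46 ± 0.723 FPKM in PIC144-3 and 1.33 ± 0.0830 FPKM in PIC496-3. Cebpd missed the fold limit without the third PIC144-3 library, at 0.97. Cd44, chosen after its values were seen, sat at the fold limit with 1.01, and missed it without the first or second library of either line, at 0.95 to 0.99.

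Receptors for glutamate and GABA were called lower more often than higher in PIC144-3, with 6 of 16 tested members called lower and 2 higher, a median log2 difference of -0.42 and a summed level of 64.4 to 66.9 FPKM in PIC144-3 and 99.4 to 102.6 FPKM in PIC496-3. Besides Grin2c, the metabotropic receptor Grm5, chosen after its values were seen, was at 8.21, 8.89 and 8.57 FPKM in PIC144-3 and 24.8, 24 and 25.2 FPKM in PIC496-3 (log2 difference -1.48 ± 0.05 (SE), adjusted p = 7.56e-07). The GABA-B subunit Gabbr2 was at 1.58, 1.59 and 1.77 FPKM in PIC144-3 and 9.19, 9.63 and 9.68 FPKM in PIC496-3 (log2 difference -2.22 ± 0.069 (SE), adjusted p = 5.14e-07), and the GABA-A subunit Gabrg1 averaged 0.512 ± 0.166 FPKM in PIC144-3 and 2.52 ± 0.404 FPKM in PIC496-3. The AMPA receptor subunits diverged: Gria4 was at 3.48, 4.65 and 3.83 FPKM in PIC144-3 and 0.0696, 0.0166 and 0.146 FPKM in PIC496-3 (log2 difference 2.96 ± 0.14 (SE), adjusted p = 3.64e-06), while Gria2 averaged 1.44 FPKM in PIC144-3 and 3.90 FPKM in PIC496-3, a log2 difference of -1.18. PIC144-1 was also higher than PIC496-4 in Gria4, by 4.11. Of 27 tested ion channel genes, 7 were called higher, among them the sodium channel subunit Scn3b (4.63 ± 0.175 FPKM in PIC144-3 and 0.221 ± 0.1004 FPKM in PIC496-3) and the calcium channel Cacna1d (1.21 ± 0.0324 FPKM in PIC144-3 and 0.0164 ± 0.0151 FPKM in PIC496-3). Called lower were 2, Kcnd2 and its accessory subunit gene Kcnip3, at 20.9 FPKM in PIC144-3 and 54.1 FPKM in PIC496-3 (log2 difference -1.35, adjusted p = 2.77e-06).

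Guidance and adhesion genes were called in both directions, beside 5.02% called higher and 2.48% lower over all tested genes. Of 34 axon guidance genes, 7 were called higher and 6 lower. The ephrin Efna5 was at 2.63, 2.69 and 2.36 FPKM in PIC144-3 and had 0 fragments in PIC496-3, at least 177-fold higher, and the semaphorin Sema3d averaged 2.20 ± 0.138 FPKM in PIC144-3 and 0.146 ± 0.0589 FPKM in PIC496-3. Slit1, a repellent for axons, was at 0.699, 0.665 and 0.754 FPKM in PIC144-3 and 4.43, 4.01 and 4.54 FPKM in PIC496-3 (log2 difference -1.999 ± 0.09 (SE), adjusted p = 2.77e-06), and the ephrin receptor Epha5 averaged 0.650 ± 0.101 FPKM in PIC144-3 and 3.50 ± 0.283 FPKM in PIC496-3. Of 37 cadherin and adhesion genes, 3 were called higher and 4 lower, with a median of -0.37. The contactin Cntn3 was at 2.69, 2.32 and 2.26 FPKM in PIC144-3 and 0.0186, 0 and 0.0182 FPKM in PIC496-3, and the laminin receptor chain Itga6 at 20.2, 20.5 and 18.2 FPKM in PIC144-3 and 55.1, 50.8 and 55.1 FPKM in PIC496-3 (log2 difference -1.43 ± 0.06 (SE), adjusted p = 2.13e-06). Nfasc, an adhesion molecule of axons, was called higher, with a log2 difference of 1.54.

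Growth factor pathways held calls in both directions, beside 5.02% called higher and 2.48% lower over all tested genes. In the Wnt pathway, 4 of 27 tested genes were called higher and 1 lower. The Wnt receptor Fzd7 was at 59.3, 63.3 and 59.9 FPKM in PIC144-3 and 15.3, 13.1 and 14.5 FPKM in PIC496-3 (log2 difference 2.05 ± 0.063 (SE), adjusted p = 5.03e-07). Its relative Fzd9 was at 269, 244 and 258 FPKM in PIC144-3 and 96.6, 104 and 98.8 FPKM in PIC496-3 (log2 difference 1.36 ± 0.053 (SE), adjusted p = 1.49e-06). Both receptors separated the lines without overlap, as 981 of the 985 called genes did. The nuclear Wnt mediator Lef1 was called higher by 1.28. The secreted Wnt inhibitors went apart, with Sfrp1 at 7.06, 8.68 and 8.04 FPKM in PIC144-3 and 0.444, 0.576 and 0.421 FPKM in PIC496-3 (log2 difference 3.10 ± 0.11 (SE), adjusted p = 8.22e-07), and Sfrp5 at 0.418, 0.283 and 0.832 FPKM in PIC144-3 and 4.48, 3.40 and 4.20 FPKM in PIC496-3 (log2 difference -2.19 ± 0.20 (SE), adjusted p = 8.39e-05). The other 5 lines averaged at most 0.185 FPKM of Sfrp5. In the TGF-beta and BMP pathway, 3 of 26 were called higher and 3 lower: the receptors Tgfbr2 and Tgfbr3 averaged 11.1 ± 0.277 and 3.58 ± 0.3003 FPKM in PIC144-3 and 2.95 ± 0.0464 and 0.907 ± 0.228 FPKM in PIC496-3, and the ligands Bmp7 and Inhbb 7.01 ± 0.944 and 3.27 ± 0.611 FPKM in PIC144-3 and 22.6 ± 1.21 and 11.3 ± 1.58 FPKM in PIC496-3. Id3, a target of the pathway, was the third gene called lower. The receptors were higher and these ligands lower in PIC144-3, with Bmp4, which had 0 fragments in PIC496-3 and was at least 21.2-fold higher in PIC144-3, as the exception. Of 24 Notch pathway genes, 2 were called higher, Maml3 and the DNA-binding Rbpj, and 2 lower, Dtx1 and the target gene Hes5, which shares 31.8% of its exon bases with another gene. Rbpj was at 21, 23.1 and 18.6 FPKM in PIC144-3 and 9.80, 9.45 and 10.3 FPKM in PIC496-3, and missed the fold limit without the second PIC144-3 library, at 0.97. Hes5 was at 0.873, 0.0875 and 0.580 FPKM in PIC144-3 and 1.01, 1.77 and 1.93 FPKM in PIC496-3, and its call (log2 difference -1.09 ± 0.33 (SE), adjusted p = 0.0285) was lost without any 1 of 4 of the libraries, at log2 differences of -0.74 to -1.18.

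Of 23 receptor tyrosine kinases and their ligands, 4 were called higher and 3 lower, beside 5.02% and 2.48% over all tested genes. Axl, the Gas6 receptor, was at 4.54, 4.56 and 4.96 FPKM in PIC144-3 and 0.710, 0.803 and 0.719 FPKM in PIC496-3 (log2 difference 2.06 ± 0.086 (SE), adjusted p = 2.08e-06), and the collagen receptor Ddr2 at 28.1, 29.4 and 29.0 FPKM in PIC144-3 and 7.41, 6.84 and 7.69 FPKM in PIC496-3 (log2 difference 1.91 ± 0.056 (SE), adjusted p = 4.24e-07). Pdgfd, a PDGF ligand, was at 0.934, 1.57 and 0.914 FPKM in PIC144-3 and had 0 fragments in PIC496-3, at least 61.5-fold higher. The EGF receptor ligand Areg, chosen after its values were seen, was lower, at 5.18, 4.86 and 6.09 FPKM in PIC144-3 and 14.9, 15.2 and 16.0 FPKM in PIC496-3 (log2 difference -1.44 ± 0.082 (SE), adjusted p = 7.19e-06). Of 21 feedback genes of the ERK pathway, 4 were called higher and 1 lower, with a median of 0.39. Ier3 was at 380, 358 and 348 FPKM in PIC144-3 and 114, 91.2 and 118 FPKM in PIC496-3 (log2 difference 1.75 ± 0.097 (SE), adjusted p = 6.99e-06), and the phosphatase Dusp4 at 114, 109 and 101 FPKM in PIC144-3 and 34.4, 31.1 and 35.4 FPKM in PIC496-3 (log2 difference 1.67 ± 0.065 (SE), adjusted p = 1.40e-06). Epha2 and Phlda1 were called as well, by 1.74 and 1.32, and Phlda1 has 33.0% of its exon bases shared with another gene. Egr1, an immediate early factor chosen after its values were seen, was the 1 lower, at 16.7, 15.9 and 17.2 FPKM in PIC144-3 and 39.9, 41.9 and 41.7 FPKM in PIC496-3 (log2 difference -1.29 ± 0.048 (SE), adjusted p = 1.21e-06).

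Of 32 proliferation genes none was called higher and 1 lower, while 4 higher and 16 lower passed the adjusted p without the fold limit. Over all 13120 tested genes 5.02% were called higher and 2.48% lower, and 3274 higher and 3284 lower passed the adjusted p alone. Mki67 and Ccnb1, chosen after their values were seen, averaged 47.5 ± 4.42 and 46.1 ± 0.679 FPKM in PIC144-3 and 51.8 ± 3.10 and 44.7 ± 1.02 FPKM in PIC496-3. The called gene was Ccnb2, which encodes the second B-type cyclin of mitosis, at 3.22, 3.19 and 3.62 FPKM in PIC144-3 and 31.7, 28.9 and 31.0 FPKM in PIC496-3 (log2 difference -3.01 ± 0.064 (SE), adjusted p = 1.68e-07). The other 5 lines averaged 14.8 to 42.5 FPKM, so PIC144-3 stood below all of them. Ccnd2, a D-type cyclin, was higher at 248, 233 and 229 FPKM in PIC144-3 and 112, 112 and 112 FPKM in PIC496-3 (log2 difference 1.07 ± 0.046 (SE), adjusted p = 2.20e-06), and its partner kinase gene Cdk6 lower at 1.46 ± 0.112 FPKM in PIC144-3 and 4.23 ± 0.147 FPKM in PIC496-3 (log2 difference -1.27 ± 0.082 (SE), adjusted p = 1.29e-05).

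The tumour suppressor Trp53 was at 1.16, 1.08 and 1.49 FPKM in PIC144-3 and 6.26, 5.79 and 5.88 FPKM in PIC496-3 (log2 difference -1.90 ± 0.10 (SE), adjusted p = 5.76e-06). It was at 4.20 FPKM in PIC144-1, 16.1 FPKM in PIC496-4 and 1.52, 1.69 and 1.40 FPKM in PC134-0, PC308-1 and PC326-1. Of 22 tested genes of the p53 list, 4 were called higher, among them Pmaip1 and Gadd45a. The cell death gene Pmaip1 was at 4.52, 5.05 and 3.48 FPKM in PIC144-3 and 1.02, 0.595 and 0.602 FPKM in PIC496-3 (log2 difference 1.97 ± 0.17 (SE), adjusted p = 6.28e-05), and Gadd45a, a stress gene with 19.1% of its exon bases shared with another gene, averaged 10.9 ± 0.566 FPKM in PIC144-3 and 4.39 ± 0.690 FPKM in PIC496-3. Fas and Bbc3 were the other 2, at log2 differences of 1.18 and 1.04. Bbc3, chosen after its values were seen, missed the fold limit without the third PIC144-3 library, at 0.97, or without the second PIC496-3 library, at 0.94. The gene itself was thus lower where these 4 target genes were higher, but 17 of the 22 tested members were not called. The median log2 difference of the list, which includes Trp53, was 0.030, and by adjusted p alone 10 members were higher and 5 lower. Whether the lines carry an engineered Trp53 allele is not given in the sources used here.

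Each metabolic list held 2 or 3 called genes, beside 7.51% called over all tested genes. In the list of glycolysis and the low-oxygen response, 3 of 31 tested genes were called higher and none lower, with a median of 0.17, and both lines were grown at 5% oxygen. The carbonic anhydrase gene Car9, a standard target of hypoxia-inducible factors, was at 55.9, 54.9 and 53.4 FPKM in PIC144-3 and 7.61, 4.97 and 6.47 FPKM in PIC496-3 (log2 difference 3.03 ± 0.13 (SE), adjusted p = 3.48e-06). PC308-1 averaged 38.5 FPKM and the other 4 lines 12.7 FPKM or less. Its relative Car12 was at 33.0, 33.6 and 30.9 FPKM in PIC144-3 and 12.4, 10.6 and 13.1 FPKM in PIC496-3 (log2 difference 1.40 ± 0.08 (SE), adjusted p = 7.29e-06), and the collagen cross-linking enzyme Lox averaged 1.17 ± 0.250 FPKM in PIC144-3 and 0.102 ± 0.0437 FPKM in PIC496-3 (log2 difference 1.46 ± 0.17 (SE), adjusted p = 2.88e-04). The Car9 window, chr4:43506776-43507075 on the plus strand, is shown for its 1 match to ACGTG, the core bound by hypoxia-inducible factors, which is read on the opposite strand and set in capitals.
Car9: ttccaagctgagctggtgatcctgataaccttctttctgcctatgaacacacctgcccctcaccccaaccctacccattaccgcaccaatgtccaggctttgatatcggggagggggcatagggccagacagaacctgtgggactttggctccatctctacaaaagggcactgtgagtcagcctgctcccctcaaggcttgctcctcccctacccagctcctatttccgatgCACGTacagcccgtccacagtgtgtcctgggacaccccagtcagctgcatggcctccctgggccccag
The Car12 window held no match, and the motif was in 19.7% of all promoters, 26.2% of those of tested genes, 22.8% of those called higher and 21.6% of those called lower. Of 29 genes of IDH, 2-oxoglutarate and amino acid metabolism, 1 was called in each direction, and the transaminase Gpt2 was called lower, at 47.6, 44.4 and 44.7 FPKM in PIC144-3 and 104, 87.9 and 103 FPKM in PIC496-3. In the NRF2 and glutathione list 1 of 27 was called in each direction, Gpx8 higher at 13 ± 1.203 FPKM in PIC144-3 and 3.17 ± 0.255 FPKM in PIC496-3, and the quinone reductase Nqo1 lower at 0.530 ± 0.301 FPKM in PIC144-3 and 3.60 ± 0.361 FPKM in PIC496-3. In the cholesterol list 1 of 23 was called in each direction, and Mylip, a regulator of the LDL receptor, was called higher, at a log2 difference of 1.19. Mylip missed the fold limit without the second PIC496-3 library, at 0.98.

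Imprinted genes, which are expressed from 1 parental copy, were called higher in 4 and lower in 2 of 27 cases. The shares over all tested genes were 5.02% and 2.48%. The adaptor gene Grb10 was at 8.31, 8.60 and 7.13 FPKM in PIC144-3 and 0.524, 0.514 and 0.614 FPKM in PIC496-3 (log2 difference 3.02 ± 0.096 (SE), adjusted p = 5.98e-07), and PIC496-3 had the lowest mean of the 7 lines. The growth factor receptor Igf2r was at 45.1, 48.8 and 47.5 FPKM in PIC144-3 and 20.0, 19.1 and 19 FPKM in PIC496-3 (log2 difference 1.26 ± 0.048 (SE), adjusted p = 1.31e-06), and Airn, the RNA transcribed antisense to it, was called in the same direction, at 1.62 FPKM in PIC144-3 and 0.504 FPKM in PIC496-3. Reads of Igf2r and Airn can be told apart only if strand was used in counting, which is not given in the sources used here. Sfmbt2 was called higher at 1.33 ± 0.235 FPKM in PIC144-3 and 0.0764 ± 0.0265 FPKM in PIC496-3. Mest, chosen after its values were seen, was at 177, 192 and 202 FPKM in PIC144-3 and 399, 441 and 407 FPKM in PIC496-3 with 23.1% of its exon bases shared with Copg2, and Ndn at 4.4, 5.02 and 4.71 FPKM in PIC144-3 and 12.1, 13.2 and 11.9 FPKM in PIC496-3.

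Along the chromosomes, neighbouring genes shared a direction in some stretches. These stretches were described with their values in view. The tested genes were divided along each autosome into 262 windows, 256 of them of 50 neighbours and the others of at least 25. Together the windows held 13000 of the 13120 genes, and in 230 windows the median log2 difference lay within 0.3 of 0. In 5 windows it was above 0.5, and these held 87 of the 659 genes called higher. The widest shift was on chromosome 14 between 20.7 and 30.6 Mb (GRCm38), where the median was 1.10, 90% of genes were higher in PIC144-3 and 27 of 50 were called higher. The window before it, from 6.74 to 20.6 Mb, had a median of 0.63 with 18 called higher. On chromosome 1, between 52.2 and 59.1 Mb, the median was 0.95, 98% of genes were higher and 20 were called. Windows on chromosome 3, from 107.9 to 119.7 Mb, and on chromosome 6, from 125.1 to 134.3 Mb, had medians of 0.61 and 0.60. In each of these 5 windows every PIC144-3 library lay above the PIC496-3 mean and every PIC496-3 library below the PIC144-3 mean. Set against the median of the other 5 lines, the chromosome 14 window was at 1.11 in PIC144-3 and 0.042 in PIC496-3, and the chromosome 1 window at 1.00 in PIC144-3 and 0.0072 in PIC496-3, so that PIC144-3 was the line that stood apart. Between PIC144-1 and PIC496-4 the same windows had medians of 0.079 and 0.18.

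Genes with unrelated functions shared these stretches. In the chromosome 14 window, the ribosomal protein gene Rps24 was at 413, 379 and 369 FPKM in PIC144-3 and 142, 129 and 131 FPKM in PIC496-3, the mitochondrial channel Vdac2 at 142, 149 and 132 FPKM in PIC144-3 and 63.5, 61.1 and 64.9 FPKM in PIC496-3, and the histone acetyltransferase Kat6b at 10.5, 10.7 and 11.2 FPKM in PIC144-3 and 4.74, 4.36 and 4.84 FPKM in PIC496-3, all chosen after their values were seen. Their log2 differences were 1.53, 1.15 and 1.13. Polr3a and Cacna1d, named above, lie in the same window, and Nid2 lies in the window before it. Casp8, an initiator of cell death on chromosome 1 chosen after its values were seen, was at 12, 10.6 and 10.8 FPKM in PIC144-3 and 0.585, 0.490 and 0.615 FPKM in PIC496-3, a difference of 3.45 beside the median of 0.95 around it. The part of these stretches in the calls of single genes was not tested. With each autosome's median subtracted, 1003 genes were called, 891 of them among the 985.

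Shifts in the other direction were weaker at their widest. They were counted from a limit of 0.3 and not 0.5, so the numbers of raised and lowered windows cannot be compared. Raised stretches were long as well: on chromosome 3, the windows from 69.1 to 119.7 Mb had medians of 0.25 to 0.61. In 15 windows the median was below -0.3, 7 of them on chromosome 2 and 6 on chromosome 12, and the lowest median was -0.47. Over whole autosomes the lowest medians were -0.27 on chromosome 12 and -0.19 on chromosome 2, and the highest 0.17 on chromosome 19 and 0.15 on chromosome 3. Between PIC144-1 and PIC496-4 the medians were -0.26 on chromosome 12 and -0.053 on chromosome 2. Set against the mean of the other 5 lines, chromosome 12 was at 0.022 in PIC144-3 and 0.30 in PIC496-3. Those 5 lines themselves ran from -0.43 in PC134-0 to 0.53 in PC308-1, so neither line of the pair stood apart from them. On the same scale chromosome 2 was at -0.14 in PIC144-3 and -0.0014 in PIC496-3, and the 5 lines ran from -0.12 in PC308-1 to 0.14 in PC134-0. Of the 459 tested genes of chromosome 14, 62 (13.5%) were called higher, while the median of that chromosome was 0.033. In a chromosome 13 window from 18.9 to 23.6 Mb, with a median of -0.45, the third PIC144-3 library was at -0.093 and the other PIC144-3 libraries at -0.44 and -0.46.

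**Figure D4:**
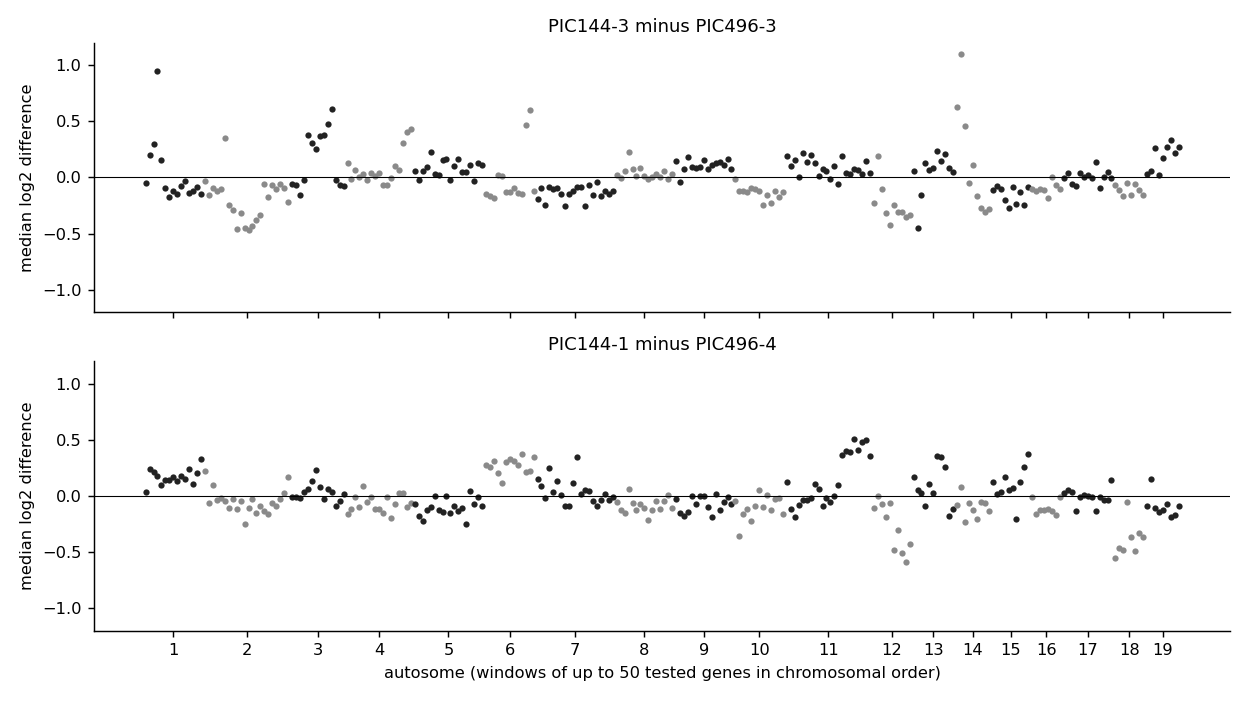
Median log2 difference over windows of up to 50 neighbouring tested genes along autosomes 1 to 19, alternating black and grey by chromosome, for PIC144-3 minus PIC496-3 (top) and for the same genes in PIC144-1 minus PIC496-4 (bottom). In the top panel a window of chromosome 14 reaches 1.10 and a window of chromosome 1 reaches 0.95, and in the bottom panel the same windows are at 0.079 and 0.18.

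The second pair of IDH1 mutant lines shared a minority of these differences. Between PIC144-1 and PIC496-4, 1383 (10.5%) of the same 13120 genes were called, 883 (6.73%) higher in PIC144-1 and 500 (3.81%) lower. In both pairs 354 genes were called, 237 in the same direction and 117 in opposite directions. The 237 genes were 24.1% of the calls of PIC144-3 against PIC496-3 and 17.1% of those of PIC144-1 against PIC496-4. Of the genes higher in PIC144-3, 26.6% were also higher in PIC144-1, and of those lower in PIC144-3, 19% were also lower in PIC144-1. The pairs share no library. The difference between the pairs itself passed an adjusted p of 0.05 in limma for 5902 genes, 802 of which were among the 985. Against all other lines, PIC144-3 had the highest mean for 388 of the 659 genes called higher and PIC496-3 the lowest for 184, and PIC496-3 had the highest mean for 167 of the 326 called lower and PIC144-3 the lowest for 86.

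Sim2, Angpt2, Kcnd2 and Brinp2 had the widest reversals among genes with a full symbol and a mean of at least 5 FPKM in PIC144-3 or PIC496-3. Sim2, a basic helix-loop-helix factor, was at 6.90, 7.26 and 6.77 FPKM in PIC144-3 and 0.623, 0.559 and 0.610 FPKM in PIC496-3, and at 0.3, 0.260 and 0.277 FPKM in PIC144-1 and 8.98, 8.88 and 9.65 FPKM in PIC496-4. Angpt2, a ligand of the endothelial receptor Tek, was at 18.0, 18.4 and 16.4 FPKM in PIC144-3 and 2.43, 2.16 and 2.69 FPKM in PIC496-3, and at 0.915, 0.438 and 0.868 FPKM in PIC144-1 and 14.5, 13.8 and 14.9 FPKM in PIC496-4. Both genes were thus high in PIC144-3 and PIC496-4 and low in PIC496-3 and PIC144-1. Kcnd2, lower in PIC144-3, was at 5.17, 5.84 and 5.12 FPKM in PIC144-1 and 0.0235, 0.117 and 0.0421 FPKM in PIC496-4, and Brinp2, a neural gene induced by BMP and retinoic acid, was at 7.39, 6.23 and 6.71 FPKM in PIC144-3 and 16.9, 18.2 and 17.0 FPKM in PIC496-3 but at 9.56, 8.94 and 9.39 FPKM in PIC144-1 and 0.0483, 0.0438 and 0.0557 FPKM in PIC496-4. The differences of the 2 log2 differences were 6.401 for Sim2, 6.24 for Angpt2, -6.62 for Kcnd2 and -5.46 for Brinp2 (adjusted p at most 4.43e-10 in limma).

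**Figure D5:**
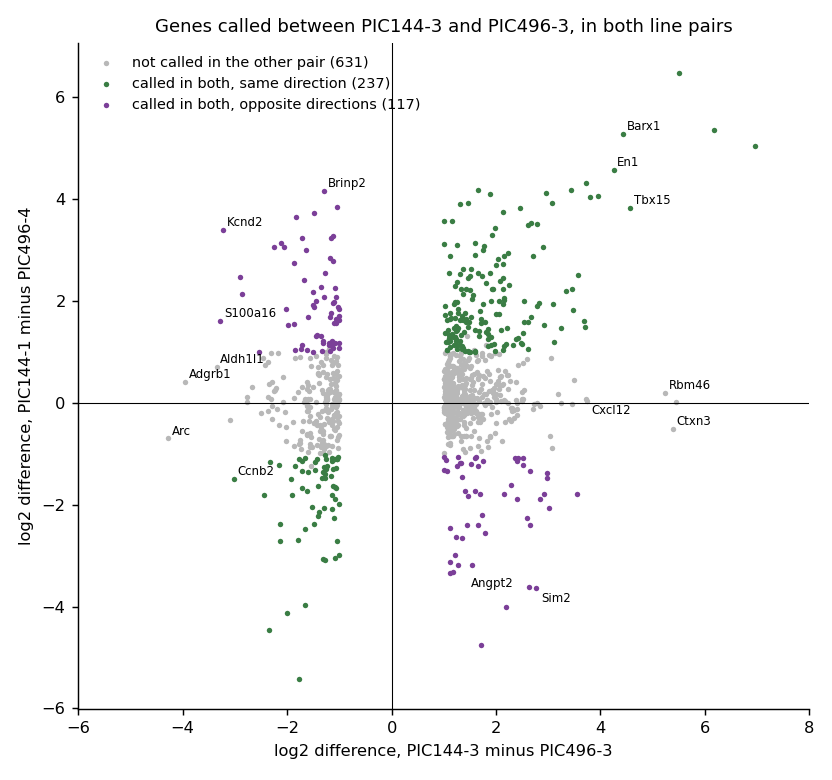
Log2 difference of the 985 genes called between PIC144-3 and PIC496-3 (horizontal axis) and of the same genes between PIC144-1 and PIC496-4 (vertical axis), with 237 genes called in both pairs in the same direction in green, 117 called in opposite directions in purple and 631 not called in the second pair in grey. Barx1, En1 and Tbx15 are high in both, Rbm46 and Ctxn3 in the first pair alone by the call, and Sim2, Angpt2, Kcnd2 and Brinp2 lie in the quadrants of opposite sign.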

How the data were processed

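The authors deposited 1 table of FPKM values for 21 libraries of 7 lines. Per the labels' protocols, polyadenylated RNA was made into strand-specific libraries read as 150 bp pairs. HISAT2 and mm39 appear in the submitters' processing notes, but 53585 of the 54532 gene IDs in the deposited table carry GRCm38 coordinates of GENCODE. No source used here names the counting tool or its use of strand. The low FPKM values were whole multiples of 1 fragment for 100% of values (within 0.05 fragments), which gave each library's depth. Autosomal genes with a mean of at least 0.5 FPKM in either line were tested on log2(FPKM + 0.5) with limma 3.58.1 in R 4.3.3 (trended, robust), without a block, and Benjamini-Hochberg adjustment over all tested genes. The floor for genes at 0 is 3 fragments over a line's libraries, and intervals and floors cover counting error only. Promoters were from RefSeq. Figures used matplotlib 3.10.9.

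The lines, gene lists and tests were chosen with earlier results of these data known. Named genes were Idh1 and Cgas, the 12 called genes with the largest difference in each direction (no overlap, mean of at least 5 FPKM, no predicted symbol, no immunoglobulin, T-cell receptor or clustered protocadherin gene), up to 4 called members of each list, each cell type list's most abundant member, and the 4 widest reversals between the line pairs. Further genes were picked with their values in view and are marked as such. Some genes that these rules name are not reported here. The tests were repeated with other pseudocounts, filters, scalings, fits and each library left out.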

Additional observations from a re-analysis of the deposited data

Results flagged for a closer look

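For 26 named genes the line pairs went opposite ways: the gene was called higher in one pair and lower in the other, and the difference between the pairs itself passed an adjusted p of 0.05 in limma. The values that follow are the log2 difference of PIC144-3 minus PIC496-3 less that of PIC144-1 minus PIC496-4, so a negative value means that the gene was low in PIC144-3 and high in PIC144-1, each set against its partner. With 117 genes in all called in opposite directions, the 26 are the ones the text names.

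Neuronal and channel genes were among them. The value was -6.62 for the potassium channel Kcnd2, -5.46 for the vesicle protein Syt1, -5.01 for the NMDA receptor subunit Grin2c and -5.46 for Brinp2. The sodium channel subunit Scn3b had the other sign, at 4.73.

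Transcription factors and lineage genes also reversed. The value was -3.54 for Nkx6-2, -3.28 for Dlx2, -4.41 for Meis2, -3.33 for Hes5 and -3.90 for Lhfpl3, and it was 6.401 for Sim2 and 4.35 for the stem cell surface gene Prom1. The Hes5 call rests on levels near 1 FPKM, was lost without single libraries, and 31.8% of the gene's exon bases are shared with another gene.

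Matrix, adhesion and secreted genes gave 4.86 for the protease Mmp14, 3.74 for the nidogen Nid2, -4.94 for the microfibril gene Fbn2 and -2.76 for the integrin Itga6. The ligands Angpt2 and Areg were at 6.24 and -3.44, and the Wnt receptor Fzd9 at 2.82. Among metabolic genes, Car12 was at 3.12, Nqo1 at -3.87 and the monooxygenase Moxd1 at -5.37, and the calcium-binding S100a16 was at -4.89.

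The imprinted genes Grb10, Mest and Ndn were at 5.08, -3.09 and -2.52, and Mest shares exon bases with its neighbour. Nid2 lies in the raised chromosome 14 window from 6.74 to 20.6 Mb. The median log2 difference there was 0.63 between PIC144-3 and PIC496-3 and -0.078 between PIC144-1 and PIC496-4. The part of that window in the Nid2 value was not tested.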

How the results depend on the processing

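No gene named as called, nor Cgas or Idh1, changed direction under an alternative that was run. The near-zero differences of Cd68, Cspg4, Nes, Mki67 and Ccnb1, none of them called, and the median of chromosome 17 (0.0057) changed sign under some alternatives, and the median over all tested genes, -0.019, became 0.016 on the TPM scale and 0.0012 without a filter. The 985 calls between PIC144-3 and PIC496-3 became 1609 on the TPM scale, where 15717 and not 13120 genes passed the level filter, 1532 with limma voom on recovered fragments (chosen after seeing the data) and 6558 without a fold limit. The TPM set held 972 of the 985 genes and the voom set 970. Other settings gave 671 (pseudocount 1) to 1441 (pseudocount 0.1) calls, and leaving out each library gave 994 to 1035. Dropping the fold limit moved the share called higher from 66.9% to 49.9%. The 1383 calls between PIC144-1 and PIC496-4 became 2221 on the TPM scale, with the same 15717 genes. The cause of these shifts was not tested. The log2 difference of Cgas passed 1 with a pseudocount of 0.1 (1.17), on the TPM scale (1.15) and by voom (1.24), and ranged from 0.898 to 1.05 with each library left out. It was above 1 without the second PIC144-3 library (1.05) or the second PIC496-3 library (1.02). The adjusted p of Idh1 missed 0.05 on the TPM scale (0.0851), without trend and robust fitting (0.0594), with all 21 libraries (0.0767), with chromosome medians removed (0.0700) and without PIC144-3 library 2 or 3 or PIC496-3 library 1 or 2 (0.0601 to 0.0743). With a pseudocount of 1, 18 named genes missed the fold limit.

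Same-numbered libraries did not deviate together (correlations of -0.00178, -0.0452 and -0.0586), so the replicate numbers do not pair the libraries. A fit with the replicate number as a block gave 986 calls, and 1409 in the other pair, against 6104 genes for the difference of the differences. The 2 planned count-model tests were not run, because the deposited unit is FPKM. Differences in genes near 0.5 FPKM rest on few fragments, and their size depends on the pseudocount.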

Other observations

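The widest differences of all were in genes that carry only predicted symbols and have no function to name. Gm20468, Gm42605, Gm43520 and Gm37614 were called higher in PIC144-3 by 6.96, 6.17, 5.50 and 5.45 on the log2 scale, and they were chosen after their values were seen. Of the 227 long intergenic non-coding genes tested, 27 were called, beside 873 of 11255 protein-coding genes.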
